A study of Drosophila melanogaster with 12 samples.

Results

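The genes described here encode the proteins of the mitochondrial ribosome of Drosophila melanogaster. They were taken as the probe sets with 1 gene whose symbol in the platform annotation, or current RefSeq symbol, begins with mRpL or mRpS and a number. This gave 71 probe sets for 69 genes, of 18952 probe sets on the array, and all 71 were among the 11261 probe sets bright enough to be tested. Of the 71, 45 probe sets (44 genes) belong to the large subunit by their symbol and 26 (25 genes) to the small subunit. mRpL47 and mRpS11 had 2 probe sets each. The RefSeq table holds 73 genes with such symbols. mRpL53 and mRpS10 share a probe set with another gene and were not used, and mRpL34 and mRpL37 were not analysed here.

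Total RNA of whole fly heads was hybridised to 12 Affymetrix arrays, 3 for each of 4 groups. The groups were conditioned flies 24 h after conditioning, conditioned flies at 0 h, non-conditioned flies at 24 h and non-conditioned flies at 0 h. All groups carry the unexpanded label OR and the treatment type of a behavioural stimulus, and the labels state no genotype beyond this, no age, no sex and no kind of conditioning. Both other arrays of conditioned flies at 0 h and 1 of those at 24 h are called biological duplicates of a first array. The labels are silent on the others, so that the p-values reflect array-to-array spread that may be partly technical.

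Mitochondria keep a small genome whose messages encode core subunits of the respiratory chain and the ATP synthase, and a ribosome of their own translates them inside the organelle. Its RNAs come from the mitochondrial genome, but its proteins are encoded in the nucleus, made in the cytosol and imported. Some are descendants of bacterial ribosomal proteins and others were added during the evolution of mitochondria. By the number in the symbol, 46 of the 71 probe sets are for proteins counted here as bacterial type and 25 for mitochondria-specific ones. All forms of S18 were counted as bacterial type, although the unified nomenclature gives mRpS18A and mRpS18B mitochondria-specific names. Nerve and muscle tissue rely heavily on oxidative phosphorylation, and in the fly the gene for mitochondrial ribosomal protein S12, technical knockout (tko), is known for a bang-sensitive seizure phenotype.

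Every array had the same 2%-trimmed mean intensity of 150.004, and medians lay between 19.9 and 21.8. With 3 arrays per group, precision is set by the number of arrays. Log2 values correlated at 0.990 to 0.995 within groups and 0.985 to 0.995 between groups. Markers of the head were present: the neuronal markers found (3 of 4) summed to 1466 to 1744, the glial markers (2 of 2) to 993 to 1161, and the photoreceptor channel trp lay between 3910 and 5130. Of the fixed markers, 1 of 4 was found for photoreceptors, 2 of 3 for the head fat body and 2 of 3 for muscle. Replicates 1 and 2 of conditioned flies at 24 h and replicate 3 of conditioned flies at 0 h stood apart, with the yolk protein transcript Yp1 at 4532 to 6653 against at most 20.8 on the other 9 arrays. The summed yolk markers (3 of 3) ran from 277 to 17710 in conditioned flies at 24 h, 199 to 8629 in conditioned flies at 0 h, 220 to 260.0 in non-conditioned flies at 24 h and 199 to 260.3 in non-conditioned flies at 0 h. Replicate 3 of non-conditioned flies at 0 h had a sum of 671 for male accessory gland markers (6 of 6), and every other array at most 35.1. Testis markers (3 of 3) summed to at most 22.6 on any array. In heads, fewer cells of a type and less RNA per cell cannot be told apart.

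Signals of the 71 probe sets were moderate and steady. Mean intensities over the 12 arrays ran from 106 for mRpS23 to 1672 for mRpS5, with a median of 212, but intensities of different probe sets cannot be ranked against each other as levels. Within a probe set, the highest array exceeded the lowest by 1.25 times at the median. This ratio stayed under 1.5 for 65 of the 71. mRpL24 lay between 433 and 469 on the 12 arrays, a ratio of 1.08, and mRpL50, mRpL22 and mRpS7 followed with ratios of 1.14, 1.14 and 1.15. The 6 probe sets with a ratio of 1.5 or more were mRpL52 (1.79), mRpL42 (1.75), mRpL11 (1.57), mRpL39 (1.54), mRpS29 (1.51) and mRpS35 (1.503). mRpL52 and mRpL42 are mitochondria-specific proteins of the large subunit, while mRpL11 is of the bacterial type.

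Across arrays, the median standard deviation of log2 values was 0.0952 for the 71 probe sets, 0.129 for all tested ones and 0.102 for the 5480 tested ones within the same range of mean intensity. Within groups, the corresponding values were 0.0852, 0.113 and 0.0842. Thus the genes varied less than the average tested probe set, and about as much as others of similar brightness. Between pairs of the 71, the median correlation over the 12 arrays was 0.15 (quartiles -0.08 and 0.37), against 0.00 for all tested probe sets. With group means removed it was 0.16 against 0.00. All such values rest on the same 12 arrays, and the genes share each array's RNA and scaling. No correlation was computed for probe sets of similar brightness. All tested ones reach down to a mean intensity of 8.38, against 106 for the 71.

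**Figure D1:**
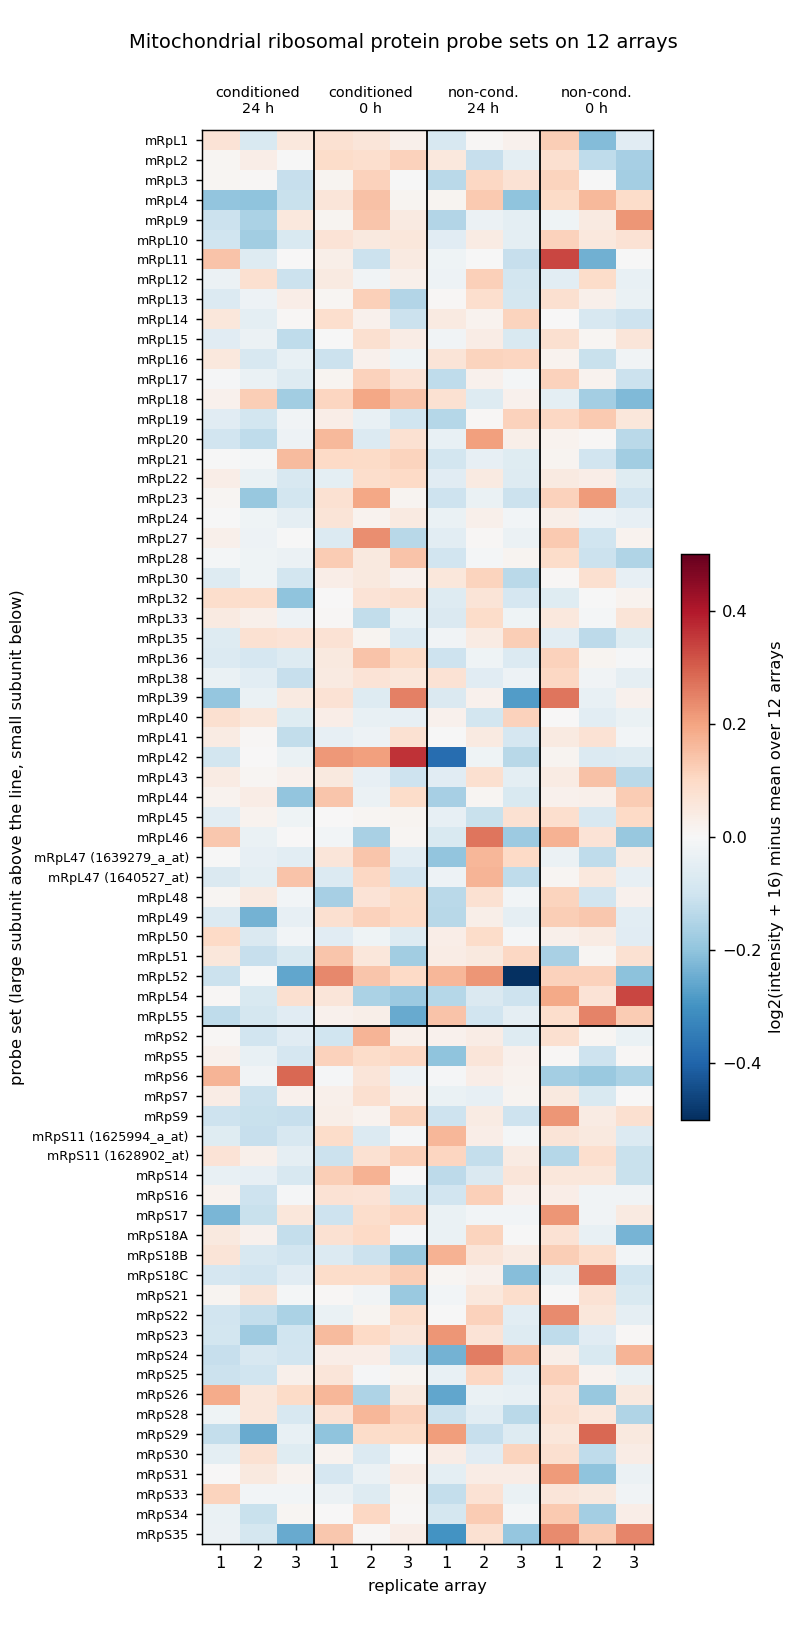
Log2(intensity + 16) of each of the 71 probe sets (rows) on each of the 12 arrays (columns), minus the probe set's own mean over the 12 arrays. Colours run from -0.5 to 0.5. Most cells are pale, and mRpL42 is red on all 3 arrays of conditioned flies at 0 h. mRpL54 and mRpS35 lie above their own means on all 3 arrays of non-conditioned flies at 0 h, though palest on replicate 2.

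The first question of the design is whether conditioning changed these transcripts. No mitochondrial ribosomal gene passed the test for conditioned against non-conditioned flies at 0 h or at 24 h. Log2 changes of the 71 probe sets at 0 h ran from -0.29 for mRpL54 to 0.30 for mRpL42, with a median of 0.01, the same as the median of 0.01 over all tested probe sets. At 24 h they ran from -0.20 for mRpS23 to 0.22 for mRpS26, with a median of -0.02 against 0.00 over all tested. The test was limma's moderated test over all 11261 probe sets with a Benjamini-Hochberg adjusted p under 0.05. Changes here are differences of log2(intensity + 16), which understates them for dim probe sets.

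At 0 h, 0 of the 71 probe sets were called higher and 0 lower in conditioned flies, while 0.293% of all tested probe sets were called higher and 0.24% lower. With an unadjusted p under 0.05, 6 were higher and 3 lower, against 6.8% and 5.43% of all tested. The 3 conditioned arrays lay wholly above the 3 non-conditioned arrays for 7 probe sets and wholly below for 4, against 9.84% and 7.73% of all tested. At 24 h, again 0 were called higher and 0 lower, as for all tested probe sets, of which 0% were called in either direction. There, 1 was higher and 2 were lower by limma at an unadjusted p under 0.05, against 2.21% and 2.09% of all tested. Arrays of the groups did not overlap for 2 higher and 6 lower, against 5.31% and 5.16%. These shares of the members lie near the background or below it, except the 6 lower at 24 h, which are 8.45% of the 71.

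The arrays also limit how large a missed change can be. The 95% interval of the change with conditioning lay within -0.5 and 0.5 for all 71 probe sets at 0 h and for all 71 at 24 h. A log2 change of 0.5 is a 1.41-fold change, and the median half-width of these intervals was 0.15. The widest reach was 0.47, for mRpL42 at 0 h. These intervals are for single probe sets and are not widened for the number of probe sets. They rest on array-to-array spread that may be partly technical, so they may be too narrow for a change between flies.

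**Figure D2:**
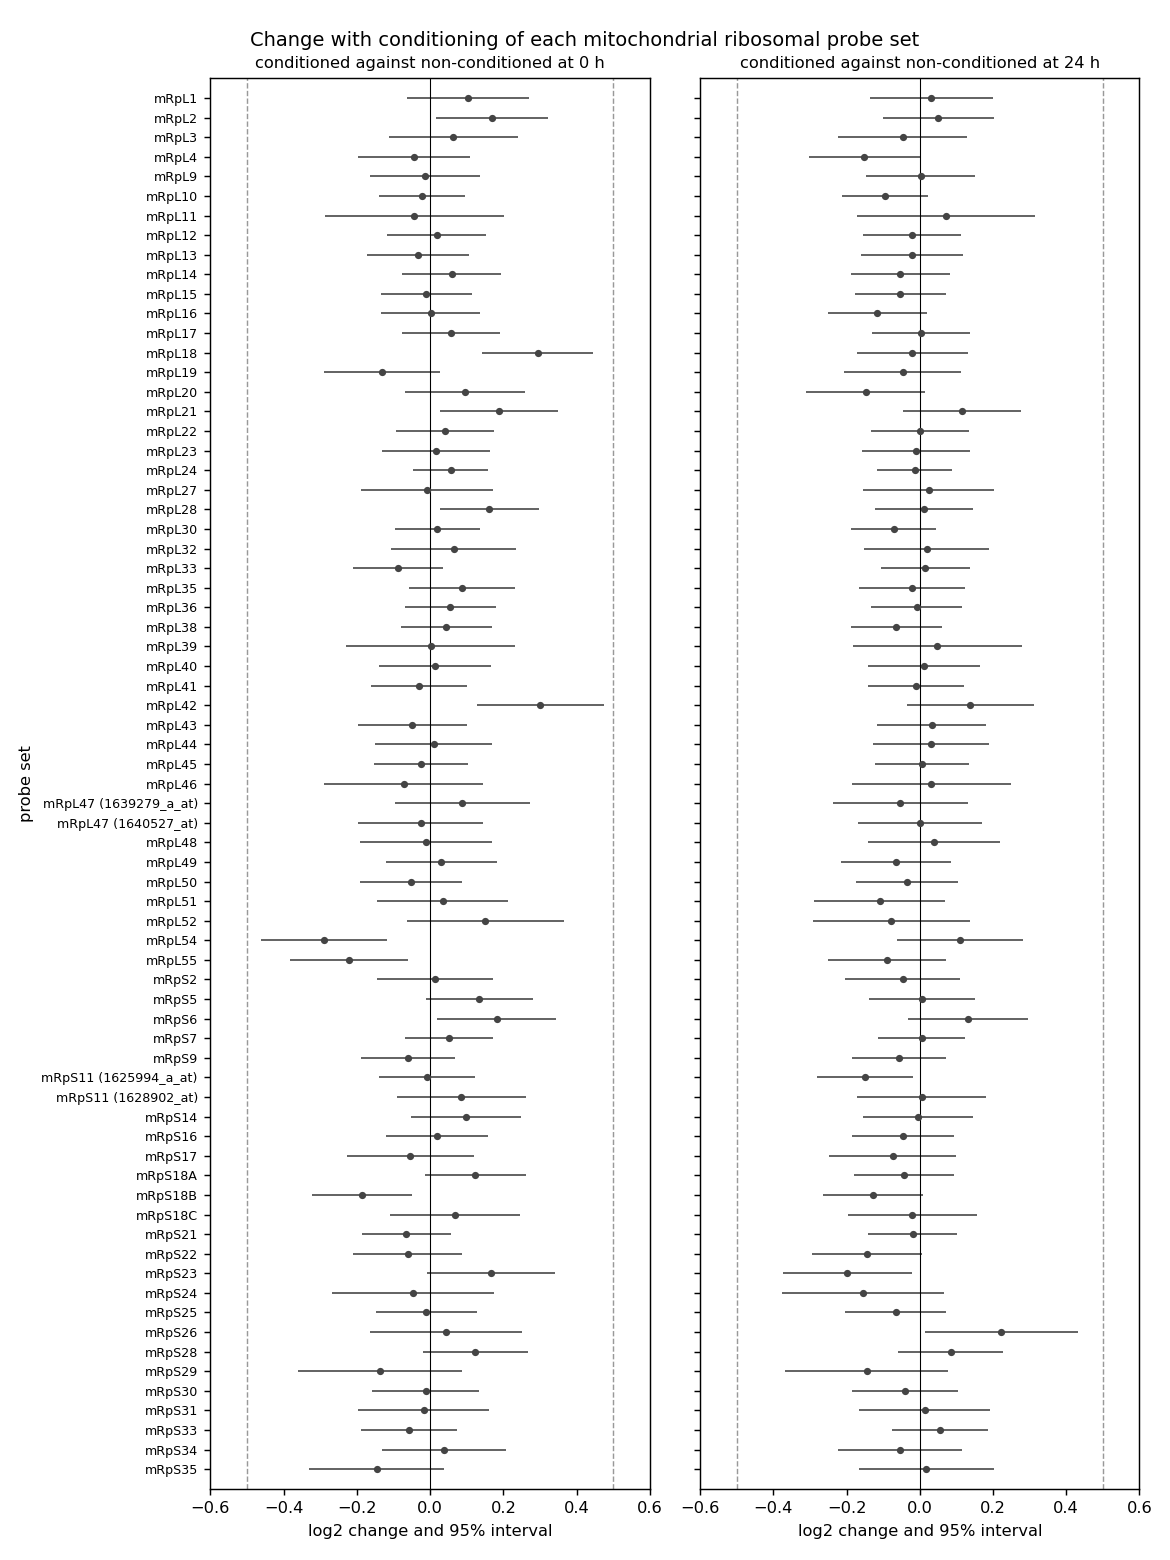
Log2 change of each of the 71 probe sets in conditioned against non-conditioned flies at 0 h (left) and at 24 h (right), with its 95% interval from limma. Dashed lines mark -0.5 and 0.5, and all intervals of both panels lie between them.

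Among proteins of the large subunit, mRpL18 came nearest to the threshold at 0 h. It belongs to the family that binds 5S ribosomal RNA in bacteria. Its intensity was 235, 250.4 and 241 in conditioned flies at 0 h, against 209, 191 and 184 in non-conditioned flies at 0 h, and the groups did not overlap. The log2 change was 0.29 ± 0.07 (SE, n = 3 arrays per group), with a limma adjusted p of 0.082. At 24 h mRpL18 measured 220.4, 238 and 191 in conditioned flies, against 229, 207 and 220.3 in non-conditioned flies, a log2 change of -0.02 ± 0.07 with overlapping groups.

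mRpL42, a mitochondria-specific protein of the large subunit, had the largest positive change at 0 h. Conditioned flies at 0 h gave 231, 229 and 257, against 198, 187 and 187 in non-conditioned flies at 0 h. No arrays overlapped, and the log2 change was 0.30 ± 0.08 with an adjusted p of 0.123. It passed the threshold when replicate 1 of the non-conditioned flies at 24 h was left out (adjusted p 0.0398). At 24 h its values were 183, 197 and 192 in conditioned flies, against 147, 193 and 177 in non-conditioned flies, a log2 change of 0.14.

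mRpL21 and mRpL28 are bacterial-type proteins of the large subunit. mRpL21 measured 124, 124 and 126 in conditioned flies at 0 h, against 117, 107 and 100.1 in non-conditioned flies, a log2 change of 0.19 with an adjusted p of 0.323. mRpL28 measured 799, 756 and 808 in conditioned flies at 0 h, against 779.9, 677 and 656 in non-conditioned flies, a change of 0.16 with an adjusted p of 0.305. Groups of mRpL28 overlapped through replicate 1 of the non-conditioned flies, while those of mRpL21 did not overlap. mRpL2, which lines the peptidyl transferase centre, also had no overlap at 0 h, with 194, 193 and 197 in conditioned flies, against 192, 164 and 159 in non-conditioned flies.

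The 4 probe sets wholly lower in conditioned flies at 0 h were mRpL54, mRpL55, mRpS18B and mRpL19, and none passed the test. mRpL54, a mitochondria-specific protein, measured 184, 156 and 153 in conditioned flies at 0 h, against 203, 185 and 226 in non-conditioned flies. Its groups were separated by the gap between 184 and 185 alone, and the log2 change was -0.29 ± 0.08 with an adjusted p of 0.138. mRpL55, of the bacterial L31 family, measured 326, 328 and 267 in conditioned flies, against 342, 384 and 352 in non-conditioned flies, a change of -0.22 with an adjusted p of 0.229. mRpS18B is 1 of 3 mitochondrial relatives of the bacterial S18 protein, and its values of 153, 148 and 139 in conditioned flies lay below 176, 172 and 159 in non-conditioned flies (log2 change -0.19, adjusted p 0.236). The other forms, mRpS18A and mRpS18C, had changes of 0.12 and 0.07 at 0 h with overlapping groups. The mRpS18B probe set is of a type that can match several transcripts. mRpL19 had a change of -0.13 with an adjusted p of 0.505.

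At 24 h every adjusted p of the 71 was at or above 0.999. mRpS26, a mitochondria-specific protein of the small subunit, had the largest positive change. It measured 133, 120.5 and 124 in conditioned flies at 24 h, against 93.5, 112 and 112 in non-conditioned flies, with no overlap and a log2 change of 0.22 ± 0.10. mRpS6, whose bacterial relative sits beside S18 on the small subunit, measured 145, 125 and 159 in conditioned flies at 24 h, against 126, 130.3 and 129 in non-conditioned flies, a change of 0.13 with overlapping groups. mRpL42 and mRpL21 had changes of 0.14 and 0.11.

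Of the probe sets lower at 24 h, mRpS23 had 97.9, 91.3 and 97.5 in conditioned flies, against 125, 111 and 100.3 in non-conditioned flies, a log2 change of -0.20 ± 0.08. mRpS22, likewise mitochondria-specific, had 224, 219.7 and 213 in conditioned flies, against 239.5, 262 and 231 in non-conditioned flies, a change of -0.14. For both, the groups did not overlap. One probe set of mRpS11, a bacterial-type protein of the small subunit, had 279, 268 and 275 in conditioned flies at 24 h, against 329, 299 and 289 in non-conditioned flies (change -0.15), while its other probe set had a change of 0.01 with overlap. mRpL4, which reaches into the peptide exit tunnel, had a change of -0.15 with overlapping groups.

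**Figure D3:**
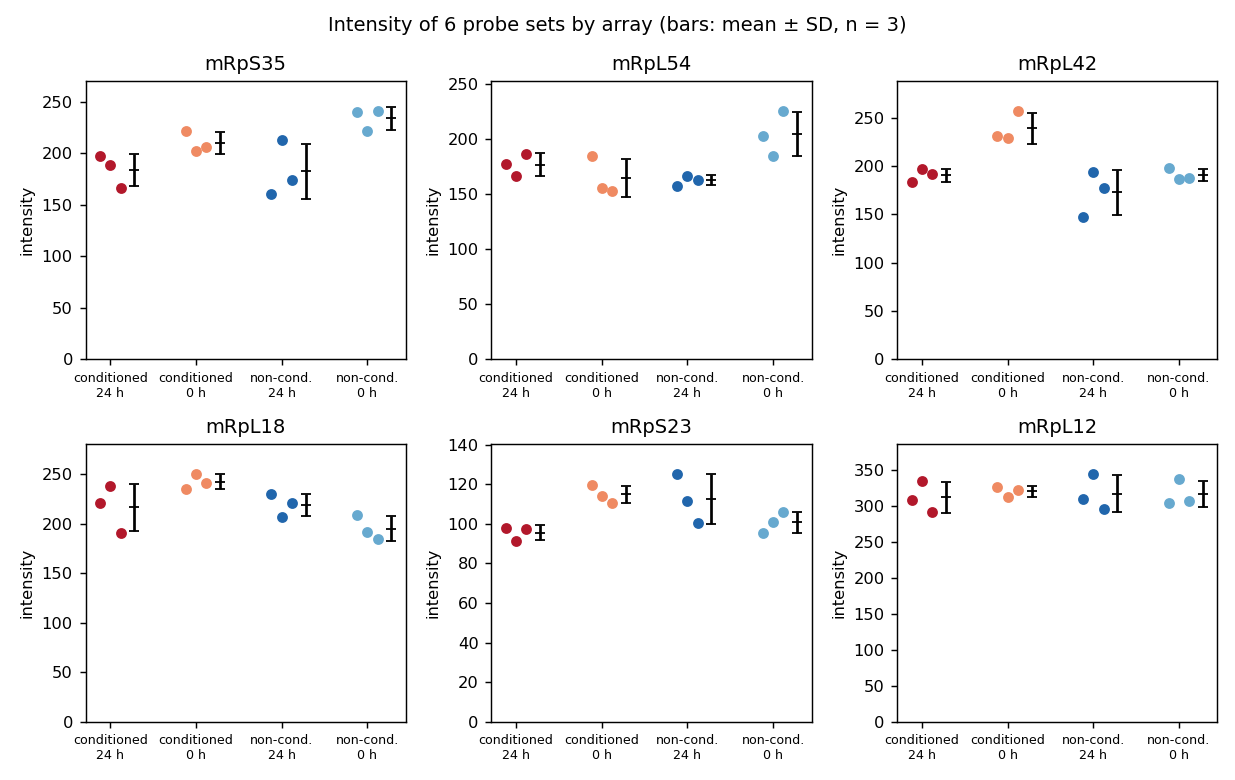
Intensity of 6 probe sets on each array by group, with black bars for the mean and SD of the 3 arrays. mRpS35 and mRpL54 are lower in non-conditioned flies at 24 h than at 0 h, mRpL42 is lower in conditioned flies at 24 h than at 0 h, and mRpL12 overlaps between all groups.

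The second question is how the transcripts differed between 24 h and 0 h. In non-conditioned flies 2 genes fell, mRpS35 and mRpL54, and none rose. In conditioned flies 1 gene fell, mRpL42, and none rose. On the fitted scale mRpS35 fell by 21.1%, mRpL54 fell by 18.9% and mRpL42 fell by 18.9%. Beyond these 3, most of the 71 probe sets in conditioned flies lay slightly below 0.

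In non-conditioned flies, 0 of the 71 were called higher and 2 lower at 24 h, against 3.15% and 2.03% of all tested probe sets. The 2 are 2.82% of the 71, close to the background. With an unadjusted p under 0.05, 2 were higher and 5 lower, against 9.65% and 8.27% of all tested. Arrays did not overlap for 4 higher and 6 lower, against 9.95% and 9.2%. The median change was -0.02 against 0.00 over all tested, with 43 of 71 below 0. Without replicate 1 of non-conditioned flies at 0 h the median was 0.0066, with 33 of 71 below 0. Without replicate 1 or replicate 2 of non-conditioned flies at 24 h it was -0.0014 or -0.054. When arrays were centred on their medians it was 0.02, with all tested at 0.04.

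mRpS35 is a mitochondria-specific protein of the small subunit. It measured 160.4, 213 and 174 in non-conditioned flies at 24 h, against 239.5, 221 and 241 in non-conditioned flies at 0 h. The groups did not overlap, though replicate 2 at 24 h came close to the lowest array at 0 h. Mean intensity fell to 182 ± 27.1 at 24 h, against 234 ± 11.1 at 0 h (SD, n = 3 each), a log2 change of -0.34 ± 0.09 (SE) with an adjusted p of 0.0308. The same gene measured 197, 188 and 166 in conditioned flies at 24 h, against 222, 202 and 206 at 0 h, also without overlap, with a change of -0.18 and an adjusted p of 0.291. The difference between these changes, 0.16 ± 0.12, did not pass the test (adjusted p 0.842). The call was lost without replicate 1 or 3 of non-conditioned flies at 24 h, with adjusted p of 0.116 and 0.128. It was also lost without replicate 1 or 3 at 0 h, with adjusted p of 0.0906 and 0.141. That replicate 3 at 0 h is the array with accessory gland transcripts, and it had the highest mRpS35 value of all arrays.

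mRpL54 measured 158, 167 and 163 in non-conditioned flies at 24 h, against 203, 185 and 226 in non-conditioned flies at 0 h. The 24 h arrays lay close together and all below the 0 h arrays. The means were 162 ± 4.57 at 24 h and 205 ± 20.4 at 0 h, the log2 change was -0.30 ± 0.08, and the adjusted p was 0.041. In conditioned flies it measured 177, 166 and 187 at 24 h, against 184, 156 and 153 at 0 h, a change of 0.10 with overlap. Leaving out any of 8 single arrays gave an adjusted p between 0.053 and 0.195 with the sign unchanged. In conditioned flies these were all 3 at 24 h and replicate 2 at 0 h. In non-conditioned flies they were replicates 1 and 3 at each time. Replicate 3 of non-conditioned flies at 0 h, the array with accessory gland transcripts, had the highest mRpL54 value of all arrays. Without it the adjusted p was 0.195.

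In conditioned flies, 0 of the 71 were called higher and 1 lower at 24 h, against 2.67% and 1.94% of all tested probe sets. With an unadjusted p under 0.05, 0 were higher and 12 lower, against 9.29% and 8.92% of all tested. The 12 are 16.9% of the 71. The 3 arrays at 24 h lay wholly above the 3 at 0 h for 0 probe sets and wholly below for 22, against 13.2% and 15% of all tested. The 22 are 31.0% of the 71, and comprised 14 of the large subunit and 8 of the small. Quantile normalization gave 22 and median centring 21. Of the 3 yolk arrays, all are conditioned arrays; without them 1 array at 24 h and 2 at 0 h remain, and the 24 h array was below both for 57.7% of the 71 and 38.4% of all tested.

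Changes below 0 were shared between subunits. In conditioned flies 52 of 71 probe sets (73.2%) had a change below 0, against 53.2% of all tested, and the median was -0.07 against -0.01. By subunit this was 33 of 45 in the large and 19 of 26 in the small, with medians of -0.06 and -0.08. By type it was 37 of 46 bacterial-type probe sets and 15 of 25 mitochondria-specific ones, with medians of -0.08 and -0.05. With mRpS18A and mRpS18B counted as mitochondria-specific it was 36 of 44 and 16 of 27. The median lay between -0.08 and -0.05 in the 23 alternative settings in which medians were recomputed. Other filters, dropping the title term or leaving out a non-conditioned array cannot move it, so those settings add no support. The size is small: the interquartile range of the 71 changes was -0.14 to 0.01, within the -0.10 to 0.09 of all tested apart from the lower end. Since the members were chosen with earlier results known, the median carries no test.

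mRpL42 measured 183, 197 and 192 in conditioned flies at 24 h, against 231, 229 and 257 in conditioned flies at 0 h. The groups stood well apart. Its means were 191 ± 6.78 at 24 h and 239 ± 15.9 at 0 h, the log2 change was -0.30 ± 0.08, and the adjusted p was 0.0453. The same 3 conditioned arrays at 0 h gave its change of 0.30 with conditioning, so the 2 are not separate results. In non-conditioned flies mRpL42 measured 147, 193 and 177 at 24 h, against 198, 187 and 187 at 0 h, a change of -0.14 with overlap. No member passed the test of the difference between the arms, and for mRpL42 the change was below 0 in both. The gene overlaps Cdc2rk in the RefSeq annotation, and mRpS35 and mRpL54 overlap no other gene there. Such overlap is common, as 41 of the 69 genes overlap another gene, mRpL18, mRpL4 and mRpL10 among them. The call was lost without any 1 of 9 arrays, with adjusted p of 0.0505 to 0.225: all 6 conditioned arrays, replicate 3 of non-conditioned flies at 24 h, and replicates 2 and 3 of non-conditioned flies at 0 h. Without the 3 yolk arrays the change was -0.26 with an adjusted p of 0.89. These arrays are not in the contrast of mRpS35 and mRpL54 and cannot move their changes, but they enter the shared spread: without them the adjusted p of these 2 genes was 0.0676 and 0.0663.

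Titles of the arrays have 2 forms, with a # on 2 arrays of each group and without it on 1. Within the arrays with a #, the differences were -0.29 for mRpS35, -0.24 for mRpL54 and -0.25 for mRpL42. Between the single arrays without it, they were -0.44, -0.44 and -0.40. These genes were picked on the same arrays, and the second form has 1 array against 1. With the # arrays alone none of the 3 passed, with adjusted p of 0.241, 0.294 and 0.344 in that order.

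Several others came near the threshold in conditioned flies. mRpL4 measured 197, 196 and 209 at 24 h, against 238, 254 and 229.9 at 0 h, a log2 change of -0.24 ± 0.07 with an adjusted p of 0.0685. mRpL10, which anchors the L12 stalk where translation factors dock, measured 254, 240.4 and 259 at 24 h, against 288, 283 and 285 at 0 h, a change of -0.17 ± 0.06 with an adjusted p of 0.0921. mRpL49, a mitochondria-specific protein, measured 249, 219 and 253 at 24 h, against 277, 284 and 281 at 0 h, a change of -0.21 ± 0.07 with an adjusted p of 0.109. None of the 3 overlapped between the times. In non-conditioned flies mRpL10 measured 262, 282 and 263 at 24 h, against 297, 284 and 288 at 0 h, a change of -0.10 without overlap, and mRpL4 and mRpL49 had changes of -0.14 and -0.12.

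In non-conditioned flies, mRpS9 and mRpL23 came next among the lower ones. mRpS9, whose bacterial relative reaches the tRNA in the P site, measured 617, 685 and 618 at 24 h, against 777, 685 and 703 at 0 h. Replicate 2 of each time overlapped narrowly, and the change was -0.17 ± 0.06 with an adjusted p of 0.137. mRpL23, at the exit of the peptide tunnel, had a change of -0.16 with an adjusted p of 0.236. In conditioned flies mRpS9 measured 617, 614 and 612 at 24 h, against 678, 674 and 719.8 at 0 h, a change of -0.16. mRpL52, the probe set with the widest range, measured 161, 174 and 143 in conditioned flies at 24 h, against 209, 193 and 188 at 0 h, a change of -0.28 ± 0.10 with an adjusted p of 0.137.

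No member passed the test for a rise with time, and mRpS6 had the largest change above 0 in both arms. It measured 126, 130.3 and 129 in non-conditioned flies at 24 h, against 111, 109.8 and 112 at 0 h, without overlap and with a log2 change of 0.18 ± 0.08 (adjusted p 0.212). In conditioned flies it measured 145, 125 and 159 at 24 h, against 127, 133 and 125 at 0 h, a change of 0.14 with overlap. mRpL18, mRpL16 and mRpL35 had changes of 0.16, 0.13 and 0.13 in non-conditioned flies, with adjusted p of 0.259, 0.298 and 0.352. mRpS21, mRpS18B and mRpL54 had changes of 0.09, 0.08 and 0.10 in conditioned flies, none past the threshold.

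**Figure D4:**
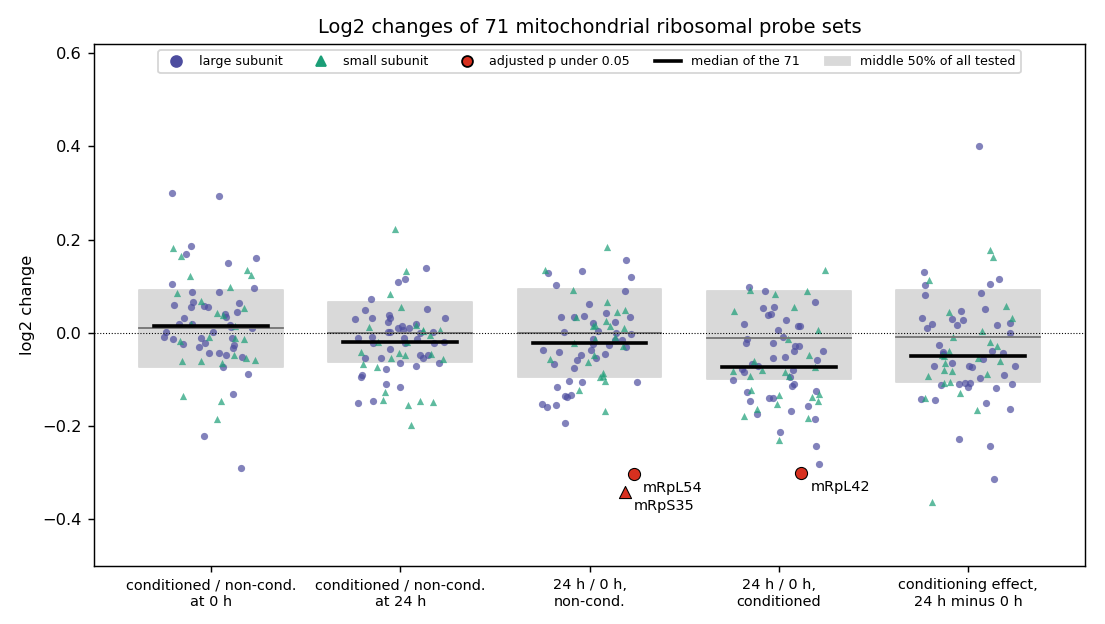
Log2 change of each of the 71 probe sets in the 5 comparisons, with circles for the large and triangles for the small subunit. Black lines are medians of the 71, grey boxes span the middle 50% of all tested probe sets with their median as a grey line, and red marks the 3 probe sets past the threshold, mRpS35, mRpL54 and mRpL42.

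Some markers of cell types moved with time. The 2 fat body markers (fit, Lsp2) summed to 6687 to 8323 in conditioned flies at 24 h against 4153 to 4850 at 0 h. In non-conditioned flies they summed to 5938 to 8415 at 24 h against 4749 to 5229 at 0 h. Lsp2 made up most of each sum and did not overlap between the times. In conditioned flies fit overlapped, with 1375, 1946 and 527 at 24 h against 427, 617 and 628 at 0 h. In non-conditioned flies fit was higher at 24 h without overlap. The 2 muscle markers, Act88F and Mlc2, summed to 776 to 797 in conditioned flies at 24 h against 922 to 992 at 0 h. In non-conditioned flies the sums were 719 to 832 at 24 h against 945 to 1130 at 0 h. Mlc2, at 693 to 1095, made up most of each sum and was lower at 24 h without overlap in both arms. Act88F, at 21.8 to 59.8, overlapped between the times in both arms. Neuronal markers summed to 1497 to 1545 in conditioned flies at 24 h against 1549 to 1744 at 0 h. Only nSyb separated there, with 774, 781 and 782 at 24 h against 904, 832 and 937 at 0 h. The other neuronal markers found, elav and brp, overlapped between the times. In non-conditioned flies the neuronal sums overlapped. No defining marker of these lists was at 0. The part of these shifts in the changes of mRpS35, mRpL54, mRpL42 and the median was not tested.

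The median deviation of the 71 probe sets from their own means gave each array a single value. It was -0.001, -0.039 and -0.046 in conditioned flies at 24 h, 0.035, 0.059 and 0.026 in conditioned flies at 0 h, -0.038, 0.037 and -0.035 in non-conditioned flies at 24 h, and 0.071, 0.010 and -0.031 in non-conditioned flies at 0 h. The conditioned arrays separated by time and the non-conditioned arrays did not. The separation was narrow, between -0.001 for replicate 1 at 24 h and 0.026 for replicate 3 at 0 h, both of them yolk arrays. Group means were -0.029 ± 0.024, 0.040 ± 0.017, -0.012 ± 0.042 and 0.017 ± 0.052 in that order (SD, n = 3). The pooled SD within groups was 0.037.

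**Figure D5:**
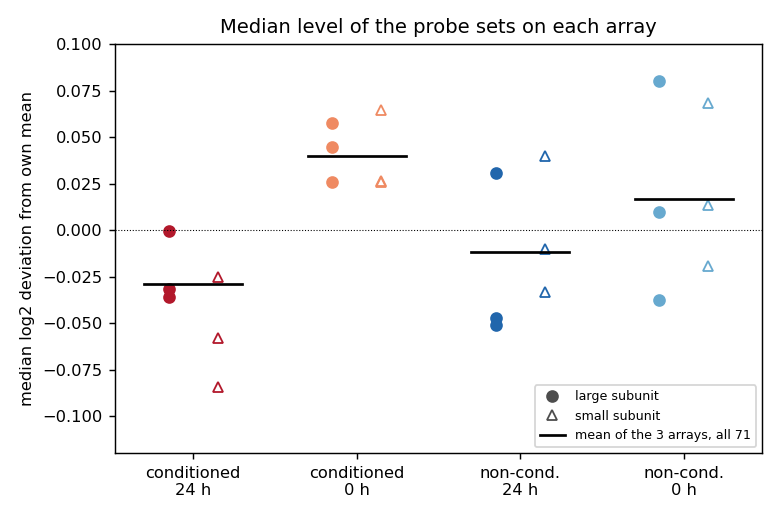
Median log2 deviation from its own mean over the 12 arrays, for large subunit probe sets (filled circles) and small subunit probe sets (open triangles) on each array, with a line at the mean of the 3 arrays over all 71. Conditioned arrays at 24 h lie at or below 0 and those at 0 h above it, while the non-conditioned groups overlap.

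The third question is whether the conditioning effect differed between the times. No member passed the test of the difference: 0 were higher and 0 lower, and 0% of all tested probe sets were called in either direction. With an unadjusted p under 0.05, 1 was higher and 3 lower by limma, against 3.07% and 4.09% of all tested. The median difference, the effect at 24 h minus that at 0 h, was -0.05 against -0.01 over all tested, with 47 of 71 below 0. mRpL54 had the largest positive difference, 0.40 ± 0.11 with an adjusted p of 0.365. Its conditioned arrays lay below the non-conditioned ones at 0 h and overlapped with them at 24 h. The change of mRpL54 with conditioning at 0 h, its fall with time in non-conditioned flies and this difference are not separate results. All use the same 3 arrays of non-conditioned flies at 0 h, with a mean of 205. The means were 165 in conditioned flies at 0 h, and 177 and 162 in conditioned and non-conditioned flies at 24 h. mRpS23 (-0.36 ± 0.12), mRpL18 (-0.31 ± 0.10) and mRpL20 (-0.24) had the largest negative ones. For mRpS23 and mRpL18 the adjusted p was 0.457. mRpS35, mRpS26 and mRpS33 had differences of 0.16, 0.18 and 0.11, and mRpS18A of -0.17. Without the 3 yolk arrays the median difference was -0.0043.

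Several members with special roles are described for all groups. mRpL12 forms the stalk that recruits translation factors and, in the fly, is linked to growth driven by Cyclin D and Cdk4. It measured 309, 334 and 292 in conditioned flies at 24 h, 326, 312 and 322 in conditioned flies at 0 h, 309.8, 345 and 296 in non-conditioned flies at 24 h, and 304, 337 and 307 in non-conditioned flies at 0 h. Its 5 changes and differences lay between -0.04 and 0.02 on the log2 scale, and the groups overlapped throughout. mRpS30 sits in the large subunit in mammalian structures despite its name, and measured between 247 and 293 on the 12 arrays, with changes between -0.04 and 0.03.

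mRpS29 is the GTP-binding protein known in mammals as DAP3. It measured 153, 138 and 163 in conditioned flies at 24 h, 143, 179.6 and 180.2 in conditioned flies at 0 h, 196, 153 and 159.6 in non-conditioned flies at 24 h, and 175, 208 and 174 in non-conditioned flies at 0 h. It varied widely within groups, and its 4 pairwise changes lay between -0.15 and -0.12 with standard errors of 0.10. mRpS18A, also placed in the large subunit in mammalian structures, had changes between -0.07 and 0.12. The 2 probe sets of mRpL47, of the bacterial L29 family, had changes of opposite sign in all 5 comparisons, none apart by more than 0.17. Those of mRpS11 differed by at most 0.15.

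Other genes of mitochondrial gene expression gave the context. The S12 and S15 proteins of the mitochondrial ribosome have other symbols in the fly, tko and bonsai. tko averaged 261 ± 2.05 in conditioned flies at 24 h and 279 ± 13.8 at 0 h (SD, n = 3), a change of -0.09, and 272 ± 13.9 in non-conditioned flies at 24 h and 288 ± 17.1 at 0 h, a change of -0.08. bonsai had changes of -0.12 and -0.08 with time in conditioned and non-conditioned flies. Both had 0 calls in all comparisons, and 0 at an unadjusted p under 0.05.

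No probe set of 4 other mitochondrial lists passed limma's test in any comparison. The lists hold 13, 14, 10 and 3 probe sets. At an unadjusted p under 0.05 they together held 3 higher and 3 lower with conditioning at 0 h, beside 6.8% and 5.43% of all tested. At 24 h they held 0 higher and 1 lower, beside 2.21% and 2.09%. For the difference between times they held 1 higher and 0 lower, beside 3.07% and 4.09%. Translation factors (13 probe sets) had medians of -0.12 in conditioned and -0.05 in non-conditioned flies with time, with 2 and 3 lower and 0 higher at an unadjusted p under 0.05, a threshold at which 8.92% and 8.27% of all tested were lower. The elongation factor mEFTu1 averaged 309 ± 12.04 in conditioned flies at 24 h and 343 ± 11.8 at 0 h, a change of -0.14 with an adjusted p of 0.233. GatA, of the enzyme that makes glutaminyl-tRNA in mitochondria, had changes of -0.29 and -0.27 with time in conditioned and non-conditioned flies, with adjusted p of 0.101 and 0.129.

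Mitochondrial aminoacyl-tRNA synthetases (14 probe sets) had medians of -0.08 and -0.02 with time, with 1 and 2 lower and 0 higher at that unadjusted threshold, again beside 8.92% and 8.27% of all tested lower. TyrRS-m averaged 62.6 ± 5.61 in conditioned flies at 24 h and 81.0 ± 3.03 at 0 h, a change of -0.31 with an adjusted p of 0.0681, and had a change of -0.31 with an adjusted p of 0.0599 in non-conditioned flies. Genes of mitochondrial transcription and RNA handling (10 probe sets) had medians of -0.08 and 0.01, with 3 and 2 lower and 0 higher beside the same background. TFAM, which packages mitochondrial DNA, averaged 161 ± 4.13 in conditioned flies at 0 h and 140.4 ± 13.3 in non-conditioned flies at 0 h, a change of 0.18 with an adjusted p of 0.291. Of the 3 probe sets for mitochondrial DNA maintenance, mtSSB, the single-strand DNA-binding protein, had a change of 0.28 with conditioning at 0 h, with an adjusted p of 0.136.

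The list of cytosolic ribosomal proteins, which build the ribosome of the cytoplasm, was taken by symbol (40 tested probe sets). It therefore also holds RpL7-like and RpL24-like, whose symbols only liken them to such proteins. These probe sets also had 0 calls by limma in every comparison. With time their medians were -0.06 in conditioned and -0.13 in non-conditioned flies, with 35 of 40 below 0 in each, beside 53.2% and 50.1% of all tested. At an unadjusted p under 0.05, 1 was lower and 0 were higher in conditioned flies, and 4 were lower and 1 higher in non-conditioned flies. Of all tested, 8.92% and 8.27% were lower and 9.29% and 9.65% higher. The 1 lower in conditioned flies was RpL7-like, and the 4 in non-conditioned flies included RpL7-like and RpL24-like. With conditioning at 0 h their median was -0.09, with 33 of 40 below 0, beside the median of 0.01 for the mitochondrial ribosomal proteins. The nuclear subunits of oxidative phosphorylation (63 tested) had medians of -0.15 in conditioned and -0.13 in non-conditioned flies with time. Of them SdhB and ND-ACP fell in conditioned flies, with changes of -0.21 and -0.23 and adjusted p of 0.0311 and 0.0347. ATPsyndelta fell in non-conditioned flies, with a change of -0.30 and an adjusted p of 0.0159. These 2 of 63 and 1 of 63 stand beside 1.94% and 2.03% of all tested called lower, so the calls lie near the background. Between 24 h and 0 h, 28 of these 63 were lower and 0 higher at an unadjusted p under 0.05 in conditioned flies, and 17 lower and 0 higher in non-conditioned flies, beside 8.92% and 8.27% of all tested lower. With conditioning, 1 higher and 2 lower cytosolic ribosomal probe sets had such a p at 0 h, and 1 lower at 24 h. For oxidative phosphorylation it was 0 at 0 h and 1 lower at 24 h. Of all tested, 6.8% were higher and 5.43% lower at 0 h, and 2.21% and 2.09% at 24 h. No test was made between these lists.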

How the data were processed

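The values are linear intensities, 1 for each probe set on each array, in a table deposited by the authors. Their software, like any background correction, is not given in the sources used here. Equal trimmed means show that the deposited intensities had been scaled to a common level. The 183 control probe sets were removed, 16 was added before taking log2, and the upper 60% by mean intensity over the 12 arrays (above 8.38) were kept. Array log2 medians ranged over 0.075, under the limit of 0.2 set for quantile normalization, so no further normalization was applied. A limma model (version 3.58.1, R 4.3.3) estimated 4 group means plus an effect of title form, moderated by eBayes with a mean-variance trend. The fit left 7 residual degrees of freedom. P-values are two-sided and Benjamini-Hochberg adjusted over 11261 probe sets, with a threshold of 0.05.

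Names came from the platform annotation, updated by gene identifier from RefSeq (assembly Release 6 plus ISO1 MT), where 13544 of the 13647 single-symbol probe sets were found. A further 402 had several symbols and 4720 none, and were not named. Members, lists and tests were chosen with earlier results of these data known. Named genes were those past the threshold, filled up to 4 per direction and comparison by lowest p, with mRpL12, mRpS29, mRpS30, mRpL47, mRpL55 and mRpS18A always named and the 2 lowest p or called genes of each further list. mRpL2, mRpL52 and others without array overlap were added after their values were seen. Replicate numbers follow the order of the series and pair no arrays. Alternatives covered the title term, the # arrays, the yolk arrays, normalization, offset, filter, trend, array weights, threshold and each array left out. Promoter and protein sequences were not used here.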

Additional observations from a re-analysis of the deposited data

Results flagged for a closer look

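mRpS23, a mitochondria-specific protein of the small subunit, was singled out because its arrays lay on opposite sides of the controls at the 2 times. It measured 97.9, 91.3 and 97.5 in conditioned flies at 24 h, all below the 125, 111 and 100.3 of non-conditioned flies at 24 h. At 0 h it measured 119.6, 114 and 111 in conditioned flies, all above the 95.3, 101 and 106 of non-conditioned flies. The conditioning effect at 24 h minus that at 0 h was -0.36 ± 0.12 on the log2 scale, and the limma test of this difference gave an adjusted p of 0.457, so it did not pass the threshold. Of all 11261 tested probe sets, 74 (0.657%) had arrays on opposite sides in this way, and of the 71 mitochondrial ribosomal ones it was 1. The mRpS23 gene overlaps Polr2C in the RefSeq annotation, where 41 of the 69 genes overlap another gene.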

How the results depend on the processing

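The counts of mitochondrial ribosomal probe sets past the threshold and the named genes of this group were recomputed under 25 alternatives, and the medians under 23. Correlations, spreads and the further lists were not recomputed. The filter on mean log2 values, the recounts of probe sets without array overlap, and the other class of mRpS18A and mRpS18B were chosen after seeing the data. For conditioning at 24 h and for the difference between times, the count of probe sets past the threshold stayed at 0 in all 25. For conditioning at 0 h it was 0 except with a threshold of 0.10, which gave 1 (mRpL18), and without replicate 1 of non-conditioned flies at 24 h, which gave 1 (mRpL42). Leaving out each array gave 0 to 1.

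The counts with time rest on few arrays. In non-conditioned flies the count of 2 became 0 with the # arrays alone, without the 3 yolk arrays, with no filter and without the trend, and 1 with median centring. Leaving out each array gave 0 to 3. In conditioned flies the count of 1 became 0 with the # arrays alone, without the yolk arrays, with quantile normalization, median centring, no filter and no trend, 3 with a threshold of 0.10 and 4 with array weights. Leaving out each array gave 0 to 2, and the gene was not always mRpL42. Without replicate 3 of conditioned flies at 24 h the 1 was mRpL4. Without replicate 3 of non-conditioned flies at 24 h the 2 were mRpL4 and mRpL52. The cause was not tested, apart from the fewer arrays in some settings.

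Of the medians, that of non-conditioned flies with time was 0.0192 under median centring, which moved all tested probe sets to 0.04. The difference between times had -0.0894 under median centring and -0.00429 without the yolk arrays. The median for conditioning at 0 h was above 0 in 21 of 23 settings, and -0.01 under quantile normalization and -0.00097 without replicate 2 of non-conditioned flies at 0 h. Medians for conditioning at 24 h, time in conditioned flies and the difference were below 0 in all 23. Other filters, dropping the title term or leaving out arrays outside a comparison cannot move its median, so such settings add no support. Over 73 named values of 29 genes, 1708 of 1825 recomputed values kept sign and side, 36 no longer passed, 11 newly passed, and 70 that were not called changed sign. No paired analysis was possible because the replicate numbers follow the order of the series and pair no arrays.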
